A study of Homo sapiens with 6 samples.

Results

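RNA of 9 epithelial junction and cadherin genes was followed in A549 cells, an established line from a human adenocarcinoma of the lung. The 9 genes were the rows of the deposited count table whose symbol was CDH1, CDH2, EPCAM, CLDN1, CLDN4, OCLN, TJP1, DSP or JUP, that is 9 of 57773 genes, and all 9 were abundant enough to be tested. One group of 3 samples received recombinant human surfactant protein D (rhSP-D), a secreted carbohydrate-binding protein of the airspace, at 10 µg/ml for 48 h. The other group of 3 samples received, for 48 h, an equal volume of the buffer used to elute the purified protein (vehicle). Both groups came from the same parental line without any genetic change named in the labels, were grown in RPMI-1640 medium with fetal bovine serum and penicillin-streptomycin, and were measured as poly(A) RNA by paired-end sequencing. Whether replicates were separate cultures is not stated, and p-values then cover only how far these samples spread, a spread that may be technical. In bulk RNA, fewer cells of a type and less RNA per cell cannot be told apart.

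Epithelial cells are held together by several kinds of junction. In adherens junctions, classical cadherins such as E-cadherin (CDH1) and N-cadherin (CDH2) bind cadherins of the neighbouring cell and connect through catenins to actin. In tight junctions, claudins and occludin close the gap between cells and are anchored by scaffold proteins such as ZO-1 (TJP1), while desmosomes tie desmosomal cadherins through plakoglobin (JUP) and desmoplakin (DSP) to keratin filaments. EPCAM encodes a separate adhesion molecule of epithelial cells. A shift from E-cadherin to N-cadherin is a widely used sign of epithelial-mesenchymal transition, and the transcription factors of that transition bind E-box letters in promoters of epithelial genes.

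The promoters shown here belong to TJP1, the member whose RNA changed, to DSG2, a desmosomal cadherin that also changed, and to DSP, which binds the same desmosomal plaque and was the member with the next smallest p. Each run holds 250 bases before a RefSeq start (GRCh38.p14), 5′ to 3′ on the gene's strand, with the E-box letters CAGGTG, or CACCTG when read from the other strand, in capitals. The TJP1 run (chr15:29969050-29969299, minus strand) lies before the outermost of 4 RefSeq starts and holds the letters 1 time, beginning 88 bases before the start, while the windows of the other TJP1 starts hold none. In the DSG2 run (chr18:31497927-31498176, plus strand) they begin 232 and 116 bases before the start, and in the DSP run (chr6:7541421-7541670, plus strand) 178 and 85 bases before it.
TJP1: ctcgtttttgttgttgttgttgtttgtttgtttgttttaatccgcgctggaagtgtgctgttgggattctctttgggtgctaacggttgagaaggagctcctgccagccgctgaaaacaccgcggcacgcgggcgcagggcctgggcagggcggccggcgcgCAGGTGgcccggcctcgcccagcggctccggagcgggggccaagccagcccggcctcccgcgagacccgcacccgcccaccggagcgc
DSG2: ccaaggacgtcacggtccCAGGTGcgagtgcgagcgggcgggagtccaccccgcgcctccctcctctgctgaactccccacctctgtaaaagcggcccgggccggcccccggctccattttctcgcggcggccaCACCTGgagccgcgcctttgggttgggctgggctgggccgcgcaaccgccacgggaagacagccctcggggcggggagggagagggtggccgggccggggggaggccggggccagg
DSP: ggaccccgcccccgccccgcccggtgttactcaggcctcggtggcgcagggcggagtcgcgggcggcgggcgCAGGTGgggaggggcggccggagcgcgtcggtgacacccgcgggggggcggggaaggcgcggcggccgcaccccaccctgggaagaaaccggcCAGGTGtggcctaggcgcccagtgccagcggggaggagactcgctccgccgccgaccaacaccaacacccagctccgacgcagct
Of 35116 RefSeq promoter windows of this length 17.5% held the letters. Windows were found for 7 of the 9 members, and of their 13 windows 5 held the letters, in TJP1, DSP, OCLN and JUP. CDH1 and EPCAM had no entry. Gene counts do not say which start these cells use, and a match is a description of the letters, not a binding site.

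Library totals ran from 18599955 to 26030880 counts in rhSP-D and from 11396193 to 19803697 in vehicle. The first principal component of log2 CPM (29.3% of variance) placed 5 libraries between 3.59 and 12.3 and vehicle replicate 1, which had the fewest counts, at -38.2, so values without it are given wherever they change a call. The line was checked against keratins of simple epithelium: KRT7, KRT8, KRT18 and KRT19 together had 12361 to 12601 CPM (counts scaled to library size) in rhSP-D and 11844 to 11975 CPM in vehicle, with KRT19 at 1.53 CPM in rhSP-D and 1.83 CPM in vehicle on average. KRT7 and KRT18 passed the test described in the next paragraph, both higher in rhSP-D, and after removal of trends on gene length and GC KRT7 passed (log2 change 0.11, adjusted p = 3.36e-07) and KRT18 did not (0.004, adjusted p = 0.902). Markers of fibroblasts summed to 13.5 to 14.4 CPM in rhSP-D and 10.9 to 15.02 CPM in vehicle over 8 genes, of which COL1A1 and LUM were tested and DCN was at 0 in every library. Those of leukocytes summed to 3.98 to 5.23 CPM in rhSP-D and 4.92 to 5.71 CPM in vehicle over 8 genes, with CD163 and MS4A1 among those at 0, and those of endothelium to at most 0.234 CPM in rhSP-D and 0.112 CPM in vehicle over 4 genes.

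Exposure to the protein was compared with its buffer gene by gene, and among the 9 members 1 changed. TJP1, the gene of the tight junction scaffold ZO-1, fell by 12.2%, while none of the 9 rose. Change here means an adjusted p under 0.05 in edgeR's quasi-likelihood test, with Benjamini-Hochberg adjustment over 15848 genes. At an unadjusted p under 0.05 the count was 0 higher and 3 lower of the 9 (TJP1, DSP and CDH1). Over all genes tested 28.1% were under it, in either direction. DESeq2 and limma-voom each gave 0 higher and 1 lower by adjusted p. Of all genes tested 15.9% changed, with 9.31% higher and 6.63% lower, so 1 member of 9 is near the share of all genes and is not a result about the members as a group. The rhSP-D values lay wholly below the vehicle values for 3 members, TJP1, DSP and CDH1, and wholly above for none, against 15.4% below, 16.2% above and 31.5% either way over all genes tested. The median log2 change of the 9 members was -0.04, against -0.01 over all genes tested, and 6 of the 9 had a negative value. With scaling by library totals alone JUP turned to -0.01 as well. After removal of trends on length and GC content, the median of the 9 was -0.001. Over all genes, 1475 of those that changed were higher and 1051 lower; the split was 856 higher and 1961 lower with scaling by library totals alone, and 1263 higher and 455 lower once the trends of length and GC had been taken out.

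**Figure D1:**
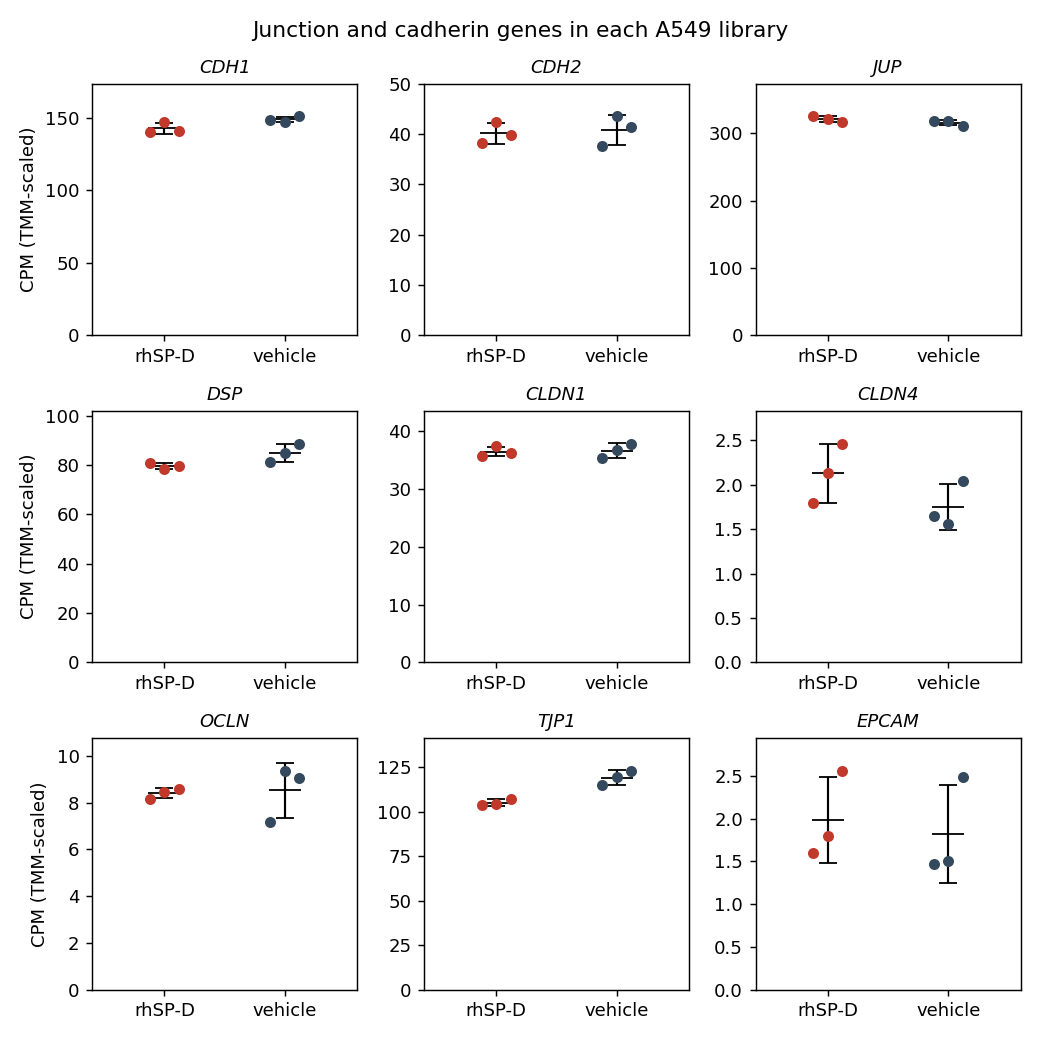
Expression in CPM (scaled by TMM factors, y axis) of each junction and cadherin gene, with 1 point per library, 3 rhSP-D libraries on the left and 3 vehicle libraries on the right of each panel, and bars for mean ± SD. The rhSP-D points of TJP1 lie between 103.7 and 107 CPM and its vehicle points between 115.0 and 123 CPM, and DSP and CDH1 are the other panels without overlap.

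Neither CDH1 nor CDH2 passed the test. CDH1 (ENSG00000039068, chromosome 16, 68737225 to 68835548, GRCh38), which encodes E-cadherin, had 139.9, 147 and 141 CPM in rhSP-D, against 148, 147 and 151 CPM in vehicle. The groups came close, with rhSP-D replicate 2 within 1 CPM of vehicle replicate 2, but did not overlap. Its log2 change was -0.06 ± 0.03 (SE, 95% interval -8.12% to -0.416%, adjusted p = 0.131). Intervals here are not adjusted for the number of genes. With scaling by library totals alone CDH1 passed (log2 change -0.11, adjusted p = 0.0098). CDH2 (ENSG00000170558, chromosome 18, 27950966 to 28177446), which encodes N-cadherin, had 38.3, 42.4 and 39.9 CPM in rhSP-D, against 37.6, 43.5 and 41.4 CPM in vehicle. The lowest and the highest of its 6 values were both in vehicle, so the groups overlapped fully. The log2 change of CDH2 was -0.04 ± 0.05 (SE, 95% interval -9.83% to 4.88%, adjusted p = 0.682). Exons of CDH1 overlap those of a gene on the opposite strand over 347 of 6177 nt and exons of CDH2 over 136 of 4950 nt, and reads from such stretches cannot be assigned to a strand here, since the strand setting is not known.

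The balance of both cadherins was read within each library, where scaling cancels. Per kilobase of exon, CDH2 RNA amounted to 35.1 ± 0.889% of CDH1 RNA in rhSP-D and 34.2 ± 2.61% in vehicle (SD, n = 3 each). Single libraries ran from 34.1 to 35.9% in rhSP-D and from 31.6 to 36.8% in vehicle. E-cadherin RNA was thus the more abundant in all 6 libraries, and the rhSP-D range lay inside the vehicle range. On the log2 scale the ratio differed by 0.04 between the groups, less than the 0.08 by which libraries of a group differed (SD).

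Among the tight junction genes TJP1 (ENSG00000104067, chromosome 15, 29699367 to 29968865) was the one that fell. It had 103.7, 105 and 107 CPM in rhSP-D, against 115.0, 119.8 and 123 CPM in vehicle. All rhSP-D values lay below all vehicle values, and the group means of 105 ± 1.84 CPM in rhSP-D and 119 ± 4.08 CPM in vehicle (SD, n = 3 each) differed by more than the spread within either group. The log2 change was -0.19 ± 0.03 (SE, 95% interval -16.1% to -8.19%, adjusted p = 8.45e-05), and TJP1 ranked 403 by p among the 15848 genes. With trends on length and GC content removed the log2 change was -0.10 ± 0.03 (SE, adjusted p = 0.0248), which moves the value by over 1.5 times and keeps the call. TJP1 passed under each of 17 alternatives of scaling, filter, tool, block and left-out library, with adjusted p from 1.42e-06 to 0.0415.

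A comparison within the ZO family was made with TJP3, which encodes ZO-3. It had 36.7, 36.3 and 37.3 CPM in rhSP-D, against 37.5, 38.5 and 36.6 CPM in vehicle, with overlapping groups (log2 change -0.03, adjusted p = 0.761). Per kilobase of exon TJP1 stood at 107 ± 1.28% of TJP3 in rhSP-D and 119 ± 5.88% in vehicle (SD, n = 3 each), with ranges of 106 to 108% in rhSP-D and 115 to 126% in vehicle. In libraries thinned to the same total the ranges overlapped, at 107 to 116% in rhSP-D and 115 to 124% in vehicle. With the trends of length and GC taken out, the log2 change was -0.10 for TJP1 and -0.08 for TJP3 (adjusted p = 0.394). Whether TJP1 changed more than TJP3 was not tested.

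Claudins and occludin, the membrane proteins of the tight junction strand, did not pass. CLDN1 (ENSG00000163347, chromosome 3, 190305701 to 190322475), a barrier-forming claudin, had 35.8, 37.4 and 36.2 CPM in rhSP-D, against 35.3, 36.7 and 37.8 CPM in vehicle. Its groups overlapped, and the interval of its change ran from -7.7% to 6.26% (log2 change -0.01 ± 0.05 SE, adjusted p = 0.897). CLDN4 (ENSG00000189143, chromosome 7, 73799542 to 73832693), a claudin known to limit sodium passage, had 46, 39 and 49 counts in rhSP-D and 19, 28 and 41 counts in vehicle, or 1.8, 2.13 and 2.46 CPM and 1.64, 1.56 and 2.04 CPM. With so few counts its log2 change of 0.26 ± 0.23 (SE, adjusted p = 0.514) has an interval from -13.9% to 67.2%. No difference was detected, and changes inside that interval are not excluded. OCLN (ENSG00000197822, chromosome 5, 69492292 to 69558104), which encodes occludin, had 8.16, 8.45 and 8.58 CPM in rhSP-D, all inside the span of its 7.18, 9.37 and 9.05 CPM in vehicle. The low vehicle value is that of replicate 1, and the log2 change was -0.04 ± 0.11 (SE, adjusted p = 0.849) with all libraries and -0.13 (adjusted p = 0.499) without that library. OCLN lies in a duplicated stretch of chromosome 5, and how multi-mapping reads were counted is not known here.

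Both plaque genes of the desmosome were well measured, and neither passed. DSP (ENSG00000096696, chromosome 6, 7541575 to 7586717), which encodes the linker to keratin, had 80.8, 78.5 and 79.5 CPM in rhSP-D, against 81.3, 84.8 and 88.7 CPM in vehicle. Its groups did not overlap, but rhSP-D replicate 1 and vehicle replicate 1 were within 1 CPM of each other. The log2 change was -0.10 ± 0.04 (SE, 95% interval -11.3% to -1.66%, adjusted p = 0.0633). DSP passed without vehicle replicate 1 (log2 change -0.12, adjusted p = 0.0303) and with scaling by library totals alone (log2 change -0.14, adjusted p = 0.00718), and its log2 change was -0.03 (adjusted p = 0.653) once the length and GC trends were removed. JUP (ENSG00000173801, chromosome 17, 41754604 to 41786931), whose product plakoglobin serves desmosomes and adherens junctions alike, was the member with the most counts, at 325, 321 and 317 CPM in rhSP-D and 318, 318 and 311 CPM in vehicle. Its groups overlapped at one value, and its log2 change of 0.03 ± 0.02 (SE, adjusted p = 0.451) had the narrowest interval of the 9, from -1.14% to 4.99%.

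EPCAM (ENSG00000119888, chromosome 2, 47345158 to 47387601) was measured with few counts. It had 41, 33 and 51 counts in rhSP-D and 17, 27 and 50 counts in vehicle, or 1.6, 1.8 and 2.56 CPM and 1.47, 1.51 and 2.49 CPM. Replicate 3 was the highest of each group, and the groups overlapped. Its log2 change was 0.09 ± 0.26 (SE, adjusted p = 0.876). Its interval, -26.3% to 52.6%, is too wide to show a difference at this depth. A floor of 3 counts in a library corresponds to 0.117 to 0.26 CPM, under these values.

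**Figure D2:**
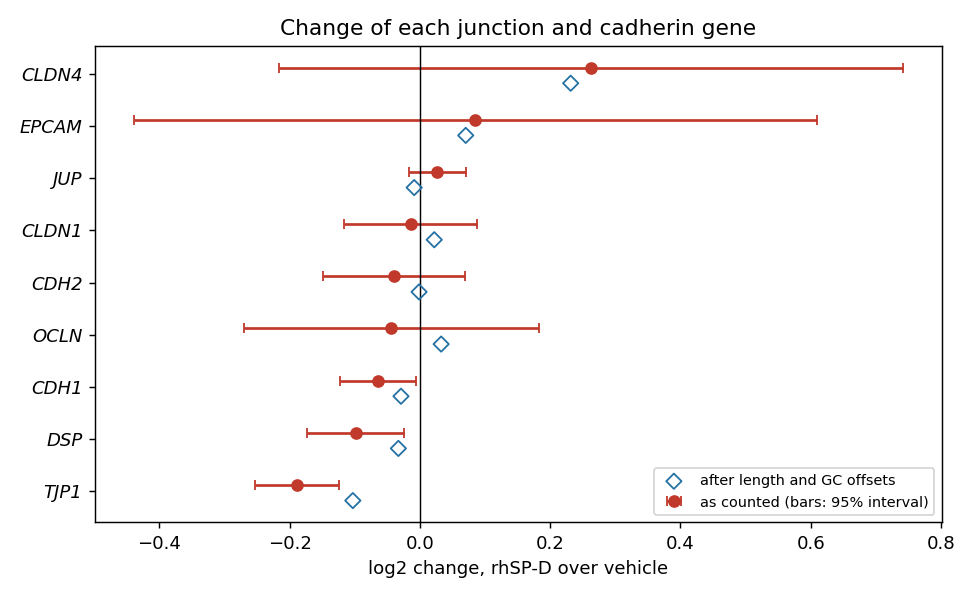
Log2 change (rhSP-D over vehicle, x axis) of each gene in 3 rhSP-D and 3 vehicle libraries. Filled points are the values as counted with bars for the 95% interval, and open diamonds are values after offsets for length and GC content. TJP1 stands at -0.19 as counted and -0.10 after the offsets, CLDN4 and EPCAM have the widest bars, and most diamonds lie nearer to 0 than their points.

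Levels of the members spanned 2 orders of magnitude once counts were divided by exon length. In CPM per kilobase of exon, JUP stood at 65.0 ± 0.795 in rhSP-D and 63.9 ± 0.767 in vehicle, and CDH1 at 23.1 ± 0.656 in rhSP-D and 24.1 ± 0.296 in vehicle (SD, n = 3 each). A middle tier held CLDN1, TJP1, CDH2 and DSP, at 9.96, 9.34, 8.11 and 7.89 in rhSP-D and 10.00, 10.6, 8.25 and 8.41 in vehicle. OCLN followed at 1.24 in rhSP-D and 1.26 in vehicle, then EPCAM at 0.789 and 0.723, and CLDN4 at 0.452 and 0.372. Neighbours in this order were apart in every library of a group except within the middle tier. CDH2 and DSP overlapped in both groups, while CLDN1 and TJP1 overlapped in vehicle and were apart in rhSP-D, where TJP1 ran from 9.2 to 9.52 and CLDN1 from 9.77 to 10.2. Such orders depend on the length used: per kilobase of the longest transcript TJP1 stood at 13.2 and CLDN1 at 10.5 in rhSP-D. By that length CDH2 and DSP were apart in rhSP-D, and OCLN and EPCAM overlapped in vehicle.

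Among the features the members were not chosen by, length of exons went with the change across the whole table. Genes with under 2000 nt of exon had a median log2 change of 0.10, those of 2000 to 4000 nt 0.04, those of 4000 to 6000 nt -0.01, those of 6000 to 10000 nt -0.05 and those of 10000 nt or more -0.08. In the longest class 2.6% of genes were higher and 19.5% lower, against 16.1% higher and 0.933% lower in the shortest. TJP1 with 11265 nt and DSP with 10093 nt were the only members in the longest class, and they had the 2 most negative changes of the 9. With GC content the change rose instead, from a median of -0.08 among genes under 40% GC to 0.07 among those of 60% or more. JUP, at 61.5% GC, was the one member in the highest GC class. Trends fitted on both features amounted to -0.09 for TJP1, -0.07 for DSP, -0.08 for OCLN, -0.04 for CDH1, CDH2 and CLDN1, and 0.03 for JUP and CLDN4, and 0.01 for EPCAM on the log2 scale. What gives rise to these trends was not tested.

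**Figure D3:**
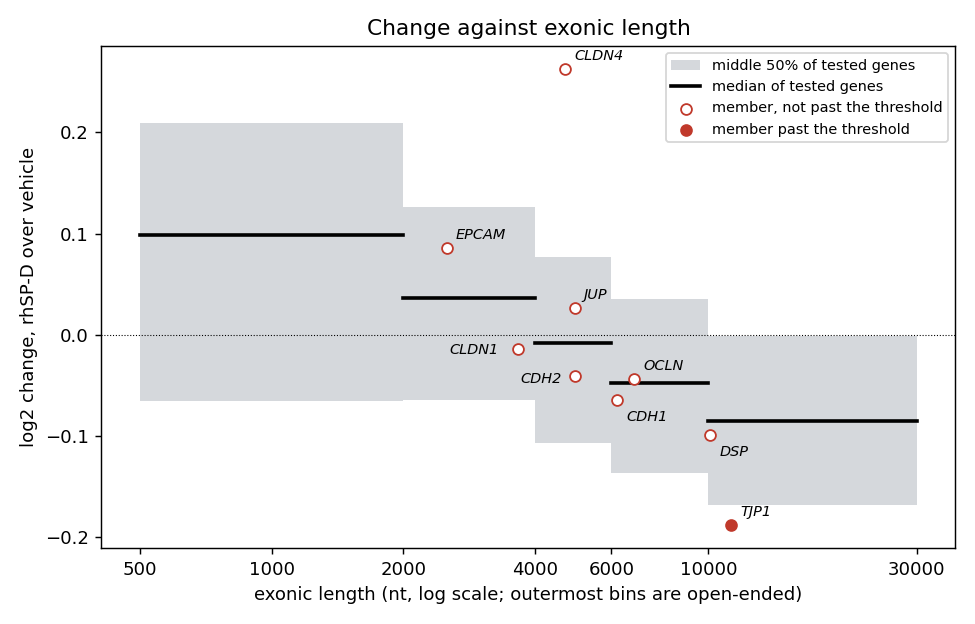
Log2 change (rhSP-D over vehicle, y axis) against exonic length in nt (x axis, log scale) of tested genes. Black lines are medians and grey boxes the middle 50% of all tested genes in 5 length classes, and points are the 9 members, filled where past the threshold. Medians run from 0.10 in the shortest class to -0.08 in the longest, and TJP1 at -0.19 lies under the grey box of its class while DSP at -0.10 lies inside it.

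Genes that work with the members were taken from 9 lists of 127 genes in all, of which 88 were tested. Of these 12 changed, 3 higher and 9 lower, or 5 higher and 4 lower once the length and GC trends were removed and 1 higher and 18 lower with scaling by library totals alone. Over all genes tested 15.9% changed, 9.31% higher and 6.63% lower, so the total of 12 of 88 is near the share of all genes. The median log2 change of the 88 was -0.04, against -0.01 over all genes tested. With 6 to 23 genes tested per list, counts within a list are descriptions.

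Exons of PKP4, CTNNA1, CLDN2, AMOTL1, ELF3, ADAM10 and CDH6 overlap opposite-strand exons over 125 to 664 nt.

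Among other desmosome genes the cadherin DSG2 fell. DSG2, which encodes desmoglein 2, a desmosomal cadherin that binds JUP and through it DSP, had 77.3, 77.0 and 76.6 CPM in rhSP-D, against 94.2, 90.7 and 91.6 CPM in vehicle. The rhSP-D values lay close together and all below vehicle, a fall of 16.3% (95% interval -20.2% to -12.2%, log2 change -0.26 ± 0.03 SE, adjusted p = 2.64e-06). Removal of the trends left a log2 change of -0.19 (adjusted p = 1.57e-04), and DSG2 passed under each of 17 alternatives. Per kilobase of exon DSG2 stood at 19.1 ± 0.149% of JUP in rhSP-D and 23.3 ± 0.469% in vehicle (SD, n = 3 each), and the ranges, 19.0 to 19.3% in rhSP-D and 22.8 to 23.7% in vehicle, did not overlap. Its exons overlap those of DSG2-AS1 over 171 of 6190 nt. PKP4, a relative of the plakophilins, had 51.5, 48.9 and 51.1 CPM in rhSP-D and 57.7, 55.9 and 55.04 CPM in vehicle and fell by 9.76% (log2 change -0.15 ± 0.04 SE, adjusted p = 0.0147). The call of PKP4 ended without rhSP-D replicate 2 (log2 change -0.13, adjusted p = 0.066), without vehicle replicate 1 (-0.13, adjusted p = 0.0581), with DESeq2 (adjusted p = 0.0594), in thinned libraries (adjusted p = 0.0791) and after removal of the trends (-0.08, adjusted p = 0.267). Of 9 tested genes of this list 2 fell and none rose (6.63% and 9.31% over all genes tested), with a median of -0.15. PERP, the one with the most counts and a tetraspan membrane protein of desmosomes, had 227 ± 4.25 CPM in rhSP-D and 222 ± 2.02 CPM in vehicle (SD, n = 3 each; log2 change 0.03, adjusted p = 0.491), and passed as higher only after removal of the trends (0.07, adjusted p = 0.0302).

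Among other cadherins 1 of 7 tested genes rose and 2 fell (9.31% and 6.63% over all genes tested), with a median of -0.18. CDH4, which encodes R-cadherin, had 24.96, 26.4 and 25.6 CPM in rhSP-D, against 21.3, 22.6 and 23.0 CPM in vehicle, and rose by 14.3% (log2 change 0.19 ± 0.06 SE, adjusted p = 0.031). It did not pass with any 1 of the 6 libraries left out (adjusted p = 0.0514 to 0.102, log2 change 0.17 to 0.22), with DESeq2 (adjusted p = 0.104) or with library totals alone (adjusted p = 0.0922). CDH24 fell by 14.8% (log2 change -0.23 ± 0.07 SE, adjusted p = 0.0227), with 19.0, 19.1 and 17.2 CPM in rhSP-D and 20.7, 21.7 and 22.2 CPM in vehicle, and its log2 change was -0.28 (adjusted p = 0.00516) after removal of the trends. It did not pass without rhSP-D replicate 3 (-0.19, adjusted p = 0.113), nor without vehicle replicate 2 (-0.22, adjusted p = 0.0626) or 3 (-0.21, adjusted p = 0.115), nor with DESeq2 (adjusted p = 0.0826) or in thinned libraries (-0.15, adjusted p = 0.273). CDH6, or K-cadherin, fell by 13.8% just under the threshold (log2 change -0.21 ± 0.07 SE, adjusted p = 0.0429), with 16.7, 17.2 and 18.6 CPM in rhSP-D and 19.4, 21.2 and 20.04 CPM in vehicle. The call of CDH6 ended without rhSP-D replicate 1 (-0.18, adjusted p = 0.191) or 2 (-0.21, adjusted p = 0.106), without vehicle replicate 2 (-0.18, adjusted p = 0.182) or 3 (-0.22, adjusted p = 0.0971), and after removal of the trends (-0.11, adjusted p = 0.418). It also ended with no filter on low counts (adjusted p = 0.0571), with DESeq2 (adjusted p = 0.129) and in thinned libraries (adjusted p = 0.109). CDH11, the one with the most counts and known as a mesenchymal cadherin, had 121 ± 3.48 CPM in rhSP-D and 123 ± 3.53 CPM in vehicle (SD, n = 3 each; log2 change -0.02, adjusted p = 0.714). The 8 cadherins not tested, CDH5 among them, had at most 20 counts over all libraries.

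Catenins and other adherens junction partners had 1 of 11 tested genes lower and none higher (6.63% and 9.31% over all genes tested), with a median of -0.03. CTNND1, or p120-catenin, which binds the cadherin tail and keeps cadherins at the surface, had 143, 143 and 144 CPM in rhSP-D, against 156, 150.1 and 155 CPM in vehicle. It fell by 6.81% (log2 change -0.10 ± 0.03 SE, adjusted p = 0.0094), a call that ended without vehicle replicate 3 (-0.09, adjusted p = 0.059) and after removal of the trends (-0.04, adjusted p = 0.483). CTNNA1, or alpha-catenin, which ties cadherin complexes to actin and had the most counts of the list, stood at 355 ± 4.44 CPM in rhSP-D and 355 ± 2.41 CPM in vehicle (SD, n = 3 each), with an interval from -2.74% to 3.04% (adjusted p = 0.975). After removal of the trends CTNNA1 passed as higher (0.06, adjusted p = 0.0337).

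No other claudin passed among 9 tested, by edgeR, DESeq2 or limma-voom, with a median of 0.02. At an unadjusted p under 0.05 the count was 1 of 9, CLDN2, against 28.1% of all genes tested. CLDN2, a pore-forming claudin, had the most counts, with 568, 572 and 580.5 CPM in rhSP-D and 549.6, 565 and 552 CPM in vehicle. Its rhSP-D values lay just above its vehicle values (log2 change 0.05 ± 0.02 SE, adjusted p = 0.102), and it passed only without vehicle replicate 2 (0.06, adjusted p = 0.0462). Per kilobase of exon CLDN2 stood at 168 CPM in rhSP-D and 163 CPM in vehicle, above each of the 9 members.

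Scaffold, polarity and other membrane genes of the tight junction had 2 of 23 tested genes lower and none higher, near the 6.63% lower over all genes tested, with a median of -0.06. AMOTL1, an angiomotin-like protein of tight junctions, had 26.1, 26.1 and 27.8 CPM in rhSP-D, against 29.7, 32.8 and 31.0 CPM in vehicle, and fell by 14.96% (log2 change -0.23 ± 0.06 SE, adjusted p = 0.00455). Its log2 change was -0.17 (adjusted p = 0.0463) after removal of the trends. MPDZ, a scaffold with many PDZ domains, fell by 15.2% (log2 change -0.24 ± 0.07 SE, adjusted p = 0.0256). It had 17.0, 17.8 and 20.2 CPM in rhSP-D, against 21.1, 21.2 and 22.3 CPM in vehicle. The call of MPDZ ended without rhSP-D replicate 1 (-0.18, adjusted p = 0.173), without rhSP-D replicate 2 (-0.22, adjusted p = 0.082) and without vehicle replicate 3 (-0.21, adjusted p = 0.133), and after removal of the trends (-0.15, adjusted p = 0.235), with DESeq2 (adjusted p = 0.0861) and in thinned libraries (adjusted p = 0.137). AMOTL2, with the most counts of the list, had 110.0 ± 3.9 CPM in rhSP-D and 107 ± 5.84 CPM in vehicle (SD, n = 3 each; adjusted p = 0.637).

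Of 7 tested genes around EpCAM 1 rose and 1 fell (9.31% and 6.63% over all genes tested). SPINT2, an inhibitor of membrane serine proteases such as matriptase and the one with the most counts, had 551, 552 and 540.5 CPM in rhSP-D, against 499.97, 498 and 497 CPM in vehicle. All rhSP-D values lay well above vehicle, a rise of 9.96% (95% interval 7.13% to 12.9%, log2 change 0.14 ± 0.02 SE, adjusted p = 3.41e-06), and a log2 change of 0.12 (adjusted p = 5.02e-06) after removal of the trends. SPINT2 passed under each of 17 alternatives. ADAM10, the protease that sheds the outer part of E-cadherin, had 113, 116 and 115 CPM in rhSP-D and 123, 125 and 125 CPM in vehicle and fell by 7.89% (log2 change -0.12 ± 0.03 SE, adjusted p = 0.00476). With 16168 nt of exon it is longer than any member, and its log2 change was -0.003 (adjusted p = 0.971) after removal of the trends. ADAM10 did not pass in thinned libraries either (adjusted p = 0.0746).

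Regulators of epithelial identity did not pass. None of 10 tested repressors of epithelial genes passed by edgeR, DESeq2 or limma-voom, among them SNAI1, SNAI2, ZEB1, ZEB2 and TWIST1, with a median of 0.09. SNAI1, SNAI2, ZEB2 and TWIST1 averaged only 2.90 (ZEB2) to 6.06 CPM (SNAI1) in rhSP-D. Their 95% intervals were wide: -2.4% to 44.1% for SNAI1, -12.8% to 36.55% for SNAI2, -31.0% to 30.5% for ZEB2 and -7.34% to 47.65% for TWIST1. Changes of a size inside these intervals are therefore not excluded. ZEB1, at 14.7 ± 0.165 CPM in rhSP-D and 17.1 ± 1.23 CPM in vehicle (SD, n = 3 each; adjusted p = 0.0684), was the 1 with an unadjusted p under 0.05. None of 6 tested factors that maintain epithelial genes passed by these tools, with a median of -0.07. Of them 1 higher (ELF3) and 2 lower (EHF and KLF5) had an unadjusted p under 0.05. Over all genes tested 28.1% had an unadjusted p under 0.05. The intervals of GRHL1 (-61% to 19.9%) and ESRP1 (-43.5% to 107.7%) were wide as well. DESeq2 gave no adjusted p for 9 of the 10 repressors, 3 of the 6 maintaining factors and 6 of the 9 claudins. TCF3, an E-box-binding factor and the repressor with the most counts, had 75.8 ± 3.59 CPM in rhSP-D and 72.7 ± 1.71 CPM in vehicle (SD, n = 3 each; log2 change 0.06, adjusted p = 0.325). ELF3, an epithelial transcription factor of the ETS family, had 187, 186 and 186 CPM in rhSP-D and 179.7, 178.9 and 180.3 CPM in vehicle, groups that did not overlap (log2 change 0.05 ± 0.02 SE, adjusted p = 0.143). Factors too scarce to test, GRHL2 and ESRP2 among them, are not covered by this result.

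Gap junction genes had 1 of 6 tested genes higher and 1 lower (9.31% and 6.63% over all genes tested), with a median of 0.05. GJA1, or connexin 43, had 128, 124 and 127 CPM in rhSP-D, against 138, 131.5 and 135 CPM in vehicle, and fell by 6.14% (log2 change -0.09 ± 0.03 SE, adjusted p = 0.0298). GJC1, or connexin 45, had 11.4, 10.5 and 8.08 CPM in rhSP-D, against 7.18, 7.64 and 8.5 CPM in vehicle, and rose by 28.2% (log2 change 0.36 ± 0.12 SE, adjusted p = 0.0393), although its groups overlapped. GJA1 did not pass without rhSP-D replicate 1 (-0.10, adjusted p = 0.0594) or 2 (-0.08, adjusted p = 0.107), without vehicle replicate 1 (-0.08, adjusted p = 0.113) or 3 (-0.09, adjusted p = 0.107), nor after removal of the trends (-0.06, adjusted p = 0.244), with no filter (adjusted p = 0.0555), with DESeq2 (adjusted p = 0.0861) or in thinned libraries (adjusted p = 0.071). GJC1 did not pass without rhSP-D replicate 1 (0.24, adjusted p = 0.287) or 2 (0.33, adjusted p = 0.129), without vehicle replicate 1 (0.31, adjusted p = 0.126) or 2 (0.34, adjusted p = 0.116), and its log2 change was 0.44 (adjusted p = 0.0105) after removal of the trends. Nor did GJC1 pass with library totals alone (adjusted p = 0.066), with limma-voom (adjusted p = 0.0633) or in thinned libraries (adjusted p = 0.278), and DESeq2 gave it no adjusted p.

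**Figure D4:**
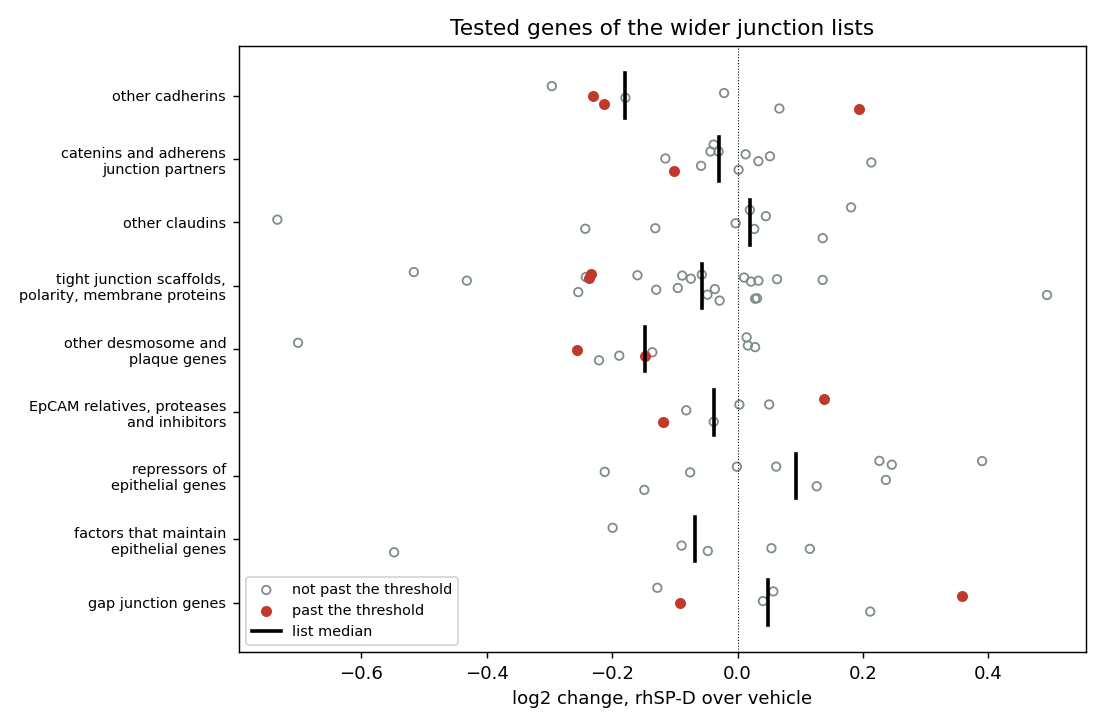
Log2 change (rhSP-D over vehicle, x axis) of 88 tested genes in 9 junction-related lists (rows), with filled points for genes past the threshold, open points for the others and black bars for list medians. Filled points are 3 on the higher side and 9 on the lower, with DSG2 at -0.26 and GJC1 at 0.36 the outermost of them.

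Genes whose level over the 6 libraries was most like that of each classical cadherin were listed as a description, out of 14373 others averaging 1 CPM or more. For CDH1 they were ZFC3H1 (Pearson's r = 0.992, Spearman's rho = 0.943), TNKS (r = 0.991, rho = 1) and RP11-220I1.1 (r = 0.991, rho = 0.943). For CDH2 they were C1RL (r = 0.996, rho = 1), RAD9A (r = 0.99, rho = 1) and TBCD (r = 0.988, rho = 1). The 6 points share libraries, depth and scaling, and no test goes with these values. None of the 3 named for CDH1 was named for CDH2, which says little, since lists of 3 out of 14373 genes would rarely share one.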

How the data were processed

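The deposited table holds raw read counts for 57773 Ensembl genes in 6 A549 libraries. Per the labels' protocols, RNA was extracted with Trizol and an NEBNext Ultra RNA kit was used. Per the submitters' processing notes, the tools were featureCounts 2.0.0, STAR 2.7.0a and cutadapt, with build GRCh38 (hg38). How multi-mapping reads were handled, the strand setting and the annotation release were not given in the sources used here. Samples were grouped by their titles, 3 per group. No library was a copy of another: chi-square per degree of freedom between libraries of a group was 1.90 to 2.13.

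The filter filterByExpr, with a minimum count of 10 and a minimum total of 15, left 15848 genes. With TMM scaling, edgeR 4.0.16 (R 4.3.3) fitted a robust quasi-likelihood model, tested 2-sided with Benjamini-Hochberg adjustment over all genes tested. CPM are counts divided by the TMM-scaled library total, on the usual CPM scale, SEs come from the test statistic, and 95% intervals use the fit's degrees of freedom. Floors of 3 counts cover counting error only. The procedure was checked on simulated counts.

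Coordinates and exon lengths are from GENCODE 29 (GRCh38), merged over all transcripts of a gene, which need not match the authors' annotation. Length and GC trends were natural splines with 5 degrees of freedom on log2 exonic length and on GC content of the longest transcript, fitted per library and entered as offsets for the 15347 tested genes in GENCODE 29. Promoter sequences are from RefSeq.

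The alternatives tried were scaling by library totals alone, by upper quartiles or by DESeq2 size factors, filters at 1 CPM in 3 samples or none, each library left out in turn, a replicate block, DESeq2 1.42.0, limma-voom (limma 3.58.1), an adjusted p under 0.01, the length and GC offsets with and without the block, and thinning to the shallowest total. Beside the 9 members, from each wider list the genes past the threshold (at most 5) and the most abundant gene were named, and for CDH1 and CDH2 the 3 genes most like each; any other gene was named after its values were seen. Members and lists were chosen with earlier results of these data known.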

Additional observations from a re-analysis of the deposited data

How the results depend on the processing

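The count of all changed genes, 2526, was 1534 with DESeq2, 1551 with the length and GC offsets and a replicate block together, 1465 at an adjusted p under 0.01, and 1678 to 2182 with 1 library left out, lowest without rhSP-D replicate 1. Of all changed genes 58.4% were higher, against 30.4% with library totals alone and 73.5% with the offsets. Among the 9 members 1 changed; 3 did with library totals alone, and 1 to 2 with 1 library left out, DSP being added without vehicle replicate 1. DESeq2 gave no adjusted p for OCLN, EPCAM and CLDN4, nor for 44 of the 88 wider genes. In the wider lists 12 genes changed, against 19 with library totals alone, 5 with DESeq2, 6 with the offsets and the block, 7 in thinned libraries, 5 at an adjusted p under 0.01 and 6 to 11 with 1 library left out (7 without rhSP-D replicate 1, 6 without rhSP-D replicate 2). TJP1, DSG2 and SPINT2 kept direction and call under each of 17 alternatives.

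Log2 changes turned sign for 9 genes, none past the threshold there. With 1 library left out CDH2 ran from -0.083 to 0.0078, EPCAM from -0.14 to 0.41, CLDN1 from -0.033 to 0.013, OCLN from -0.13 to 0.026, CDH11 from -0.047 to 0.0055, CTNNA1 from -0.0071 to 0.0094 and AMOTL2 from -0.00044 to 0.072. With library totals alone JUP was at -0.014, CTNNA1 at -0.0395, AMOTL2 at -0.0103 and PERP at -0.013. With the offsets CLDN1 was at 0.022, OCLN at 0.033, JUP at -0.0086 and CDH11 at 0.079, and with the offsets and the block CDH2 was at 0.014, CLDN1 at 0.027, OCLN at 0.053, JUP at -0.0092 and CDH11 at 0.076. Thinned, CDH2 was at 0.0043, OCLN at 0.019 and CDH11 at 0.00044. CTNNA1 was at -0.0030 with upper-quartile factors and -0.00038 with the 1 CPM filter. The cause was not tested.

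Libraries with the same replicate number did not deviate together (r = -0.079, -0.068 and 0.027 for numbers 1, 2 and 3), so the numbers were not taken as pairs. With a replicate block 2319 genes changed in all, 1 of the 9 members (TJP1) and 10 of the wider lists. The block ended the calls of CDH6 (adjusted p = 0.0736) and GJC1 (adjusted p = 0.075), and the offsets and the block together that of AMOTL1 (-0.16, adjusted p = 0.0798), while CTNNA1, past the threshold with the offsets, was not past it with both (0.06, adjusted p = 0.0662). Depth limits EPCAM and CLDN4, which had 17 to 51 counts per library.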
